A study of Mus musculus with 12 samples.

Results

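The 32 genes described here encode the enzymes of cholesterol synthesis, the regulators that control them, and the main enzymes of fatty acid synthesis and desaturation. They were chosen by symbol as members of the pathway, with earlier results of these data known. Rows of the deposited count table whose Ensembl identifiers map to those symbols were used. They are 32 of the 56980 genes in the table, and all 32 passed the filter on low counts, among 19152 genes tested. By role, 7 of them belong to the mevalonate and isoprenoid steps, 3 carry squalene to lanosterol and 8 carry lanosterol to cholesterol. Another 6 are regulators of the sterol regulatory element binding proteins (SREBPs) or carry sterols, and 8 belong to fatty acid synthesis.

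The data are bulk RNA-seq libraries from hippocampi of 12 male mice, 3 in each of 4 groups. The groups were mice with the AppNL-G-F allele and Trem2 KO at 9 months (Trem2-KO, 9 months), mice with the AppNL-G-F allele alone at 9 months (App-KI, 9 months), and the same genotypes at 3 months (Trem2-KO, 3 months, and App-KI, 3 months). All 12 mice carried the AppNL-G-F knock-in, a humanised amyloid precursor protein allele with disease mutations that leads to amyloid-β plaques. No library from a mouse without the knock-in was analysed here, so age and amyloid load cannot be told apart. Trem2 is a receptor of microglia that senses lipids and is needed for their full response to plaques. The comparison of genotypes asks how its absence changes expression in bulk hippocampus of mice with the knock-in. Each library carries its own mouse identifier.

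Cholesterol is built from acetyl-CoA through mevalonate, isoprenoids, squalene and lanosterol, and the adult brain makes its own because plasma lipoproteins hardly cross the blood-brain barrier. When sterols in the endoplasmic reticulum are low, SCAP escorts the SREBPs to the Golgi, where they are cleaved to transcription factors; INSIG proteins hold the complex back when sterols are plentiful. SREBP2, from Srebf2, acts mainly on cholesterol synthesis and SREBP1, from Srebf1, mainly on fatty acid synthesis, and oligodendrocytes and astrocytes are the main users of both programmes in the brain.

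The start regions of Srebf1, Acat2, Acly, Mvk and Nsdhl, genes whose levels differed between ages or genotypes, and of Hmgcs1 are shown because SREBP1, from Srebf1, and its relative SREBP2 act through short elements near the starts of sterol and fatty acid synthesis genes. They are RefSeq windows on GRCm38.p6, from 250 bases before to 50 bases after an annotated start, printed 5′ to 3′ along the gene's strand. The windows are Hmgcs1 on chr13:119690101-119690400 (plus strand), Srebf1 on chr11:60210422-60210721 (minus strand, 1 of 3 annotated starts), Acat2 on chr17:12960676-12960975 (minus strand), Acly on chr11:100527951-100528250 (minus strand), Mvk on chr5:114444019-114444318 (plus strand) and Nsdhl on chrX:72918271-72918570 (plus strand). Capitals mark matches on either strand to TCACNCCAC, the core of the classical sterol regulatory element, to the CCAAT box (CCAAT) and to the GC box (GGGCGG).
Hmgcs1: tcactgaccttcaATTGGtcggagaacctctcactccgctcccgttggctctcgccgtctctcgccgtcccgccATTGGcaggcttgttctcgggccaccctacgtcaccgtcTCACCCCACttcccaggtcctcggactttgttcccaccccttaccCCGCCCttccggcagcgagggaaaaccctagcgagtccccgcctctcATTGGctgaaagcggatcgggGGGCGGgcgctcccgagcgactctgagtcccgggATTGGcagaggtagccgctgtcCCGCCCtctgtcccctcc
Srebf1: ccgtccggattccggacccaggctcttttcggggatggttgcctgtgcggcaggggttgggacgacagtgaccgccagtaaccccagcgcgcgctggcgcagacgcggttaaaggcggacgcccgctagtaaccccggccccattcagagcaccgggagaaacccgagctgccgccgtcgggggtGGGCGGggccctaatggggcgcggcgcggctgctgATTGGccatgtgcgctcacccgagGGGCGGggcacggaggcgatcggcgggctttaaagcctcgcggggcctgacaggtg
Acat2: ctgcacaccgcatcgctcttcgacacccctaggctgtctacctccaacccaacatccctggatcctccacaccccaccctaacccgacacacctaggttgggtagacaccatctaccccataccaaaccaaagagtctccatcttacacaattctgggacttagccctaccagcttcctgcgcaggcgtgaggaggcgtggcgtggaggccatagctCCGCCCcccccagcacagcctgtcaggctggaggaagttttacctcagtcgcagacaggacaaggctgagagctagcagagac
Acly: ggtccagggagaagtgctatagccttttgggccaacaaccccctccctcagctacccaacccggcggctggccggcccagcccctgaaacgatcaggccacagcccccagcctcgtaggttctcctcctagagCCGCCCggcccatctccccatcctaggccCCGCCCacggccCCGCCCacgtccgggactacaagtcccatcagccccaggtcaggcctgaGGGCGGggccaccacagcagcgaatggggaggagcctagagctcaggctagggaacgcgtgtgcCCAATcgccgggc
Mvk: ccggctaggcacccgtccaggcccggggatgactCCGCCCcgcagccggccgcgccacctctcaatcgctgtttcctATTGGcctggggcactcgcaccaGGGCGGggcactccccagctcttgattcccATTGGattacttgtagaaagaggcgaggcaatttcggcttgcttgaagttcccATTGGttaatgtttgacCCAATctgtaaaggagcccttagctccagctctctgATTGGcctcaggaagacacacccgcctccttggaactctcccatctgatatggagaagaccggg
Nsdhl: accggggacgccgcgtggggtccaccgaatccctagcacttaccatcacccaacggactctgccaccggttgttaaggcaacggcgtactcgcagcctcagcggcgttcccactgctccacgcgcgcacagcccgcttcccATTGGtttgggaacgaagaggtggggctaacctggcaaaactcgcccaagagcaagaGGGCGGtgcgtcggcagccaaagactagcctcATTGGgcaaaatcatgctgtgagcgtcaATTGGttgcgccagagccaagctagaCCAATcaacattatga

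Of the 32 genes, 25 matched the RefSeq table, with 33 windows. The others were Stard4, Fdft1, Sqle, Scd2, Fdps, Scd1 and Fads1. The core TCACNCCAC was found in 1 of these 33 windows, that of Hmgcs1, where it began 137 bases before the annotated start, and in 1.24% of all 32851 windows in the table. CCAAT was in 21 of the 33 windows (63.6%) and in 37.4% of all windows. GGGCGG was in 25 of the 33 windows (75.8%) and in 35.7% of all windows. The Mvk window held 5 CCAAT matches and the Nsdhl window 4, whereas the Acly window held 1 CCAAT and 4 GGGCGG matches. These are letter matches in fixed windows and do not show that a factor binds there.

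Library totals ran from 14627892 to 24594655 counts. Levels are given as CPM, counts relative to library size, and on that scale 3 counts are worth 0.122 to 0.205, the most a gene with a count of 0 could have. Trem2 itself stood at 3.62 to 3.83 CPM in Trem2-KO libraries, against 49.8 to 55.6 CPM in App-KI libraries, at 9 months. At 3 months it stood at 1.85 to 2.17 CPM in Trem2-KO, against 8.05 to 10.35 CPM in App-KI. Neuronal markers and hippocampal subfield markers were present in every library. The choroid plexus markers differed widely within groups, with a mean log2 CPM of 4.09 to 8.47 in Trem2-KO, against 3.30 to 7.43 in App-KI, at 9 months. At 3 months it was 6.38 to 7.22 in Trem2-KO, against 3.63 to 7.61 in App-KI.

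Scd2, the main stearoyl-CoA desaturase of the brain, dominated the set. The 32 genes together summed to 4063 to 4676 CPM per library, and Scd2 alone made up 31.7% to 34.95% of that sum. Per kilobase of exon, Scd2 averaged 266 CPM over the 12 libraries, followed by Fads2 at 96.2, Hmgcs1 at 74.1, Fads1 at 59.8 and Acly at 38.8 CPM per kilobase. Fads1 and Fads2 are the desaturases that make polyunsaturated fatty acids, Hmgcs1 makes HMG-CoA at the head of the mevalonate pathway, and Acly makes cytosolic acetyl-CoA from citrate. At the low end stood Lss at 2.44, Acaca at 1.62 and Fdps at 0.833 CPM per kilobase. The length used is the union of all annotated exons, 10787 bases for Lss and 17074 for Acaca, which can exceed any single transcript. Such a length lowers the per-kilobase value. Not divided by length, Lss averaged 26.8 CPM and Mvk 14.3 CPM in Trem2-KO at 9 months, although Mvk ranks above Lss per kilobase. Lss cyclises squalene epoxide to lanosterol, Acaca makes malonyl-CoA and Fdps makes farnesyl diphosphate.

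**Figure D1:**
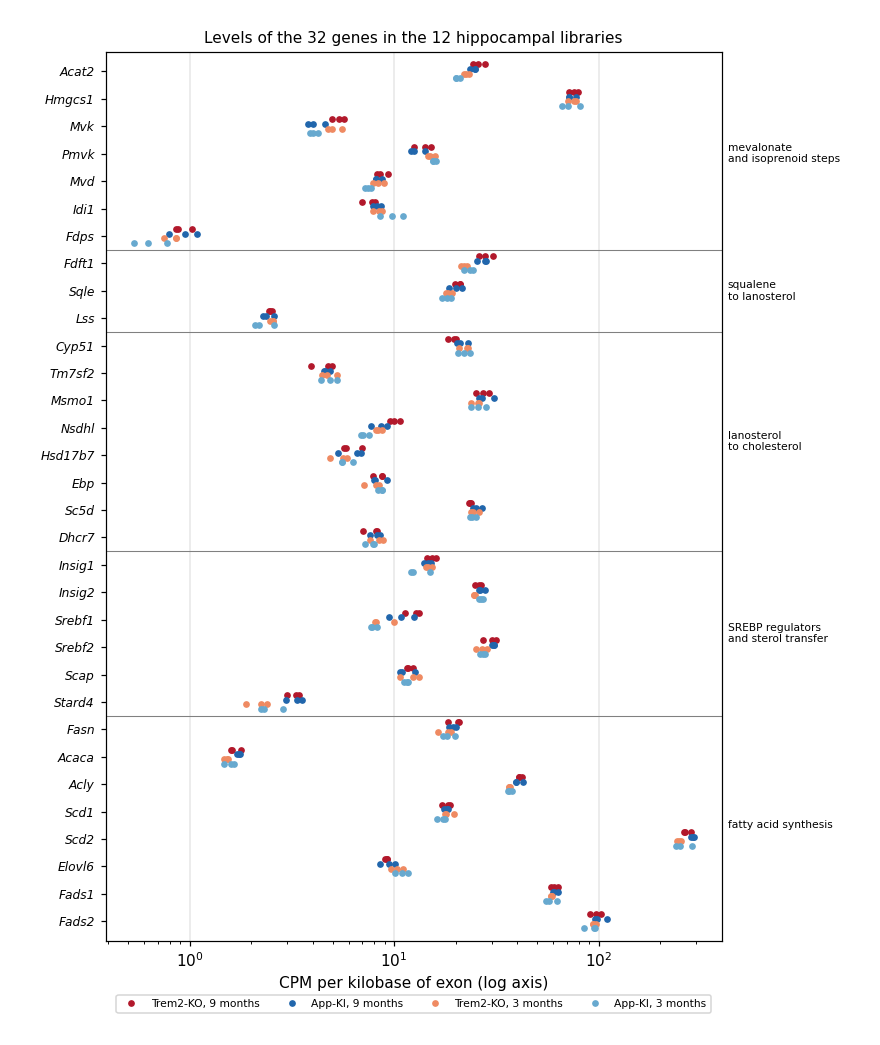
CPM per kilobase of exon (log axis) of each of the 32 genes in each of the 12 libraries, 1 point per library, coloured by group and ordered by role. Scd2 lies highest at 239 to 291 and Fdps lowest at 0.533 to 1.09 CPM per kilobase, and for most genes the 4 groups lie almost on top of each other.

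The per-kilobase scale also needs care for several genes because no source used here gives the strand setting or how reads shared between genes were handled. In the GENCODE M21 annotation, Fdps shares 26.2% of its 50-base words with other genes, mostly Gm43738. For Acaca that share is 30.4%, mostly with Gm5182, and for Idi1 25.3%, mostly with Gm13502. Acat2 shares 39.1% of its 50-base words with Acat3, and the exons of Fdft1 overlap those of Ctsb on the opposite strand over 774 bases, 18.3% of Fdft1's exon bases. Counts of these genes are uncertain, and the shares do not show by how much. The comparisons between groups set each gene against itself, which does not remove reads from another gene that itself changes.

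The clearest differences in the set were between ages. In Trem2-KO hippocampus 5 of the 32 genes rose between 3 and 9 months and none fell, and in App-KI hippocampus 4 rose and none fell, by edgeR's quasi-likelihood test at a Benjamini-Hochberg adjusted p under 0.05. The genes that rose in Trem2-KO were Srebf1, Stard4, Fdft1, Acat2 and Acly, and those that rose in App-KI were Srebf1, Stard4, Fdft1 and Acat2. Over all genes tested, 5.68% were called higher and 3.02% lower in Trem2-KO, and 3.95% higher and 2.71% lower in App-KI. DESeq2 called 5 of the 32 in Trem2-KO, against 1877 of 16533 genes, and 5 in App-KI, against 1352 of 16533. In App-KI these included Pmvk, lower at 9 months by 0.28 on the log2 scale. Its adjusted p was 0.0494 in DESeq2 and 0.0567 in edgeR's quasi-likelihood test. The median log2 fold change of the 32 genes was 0.064 in Trem2-KO and 0.09 in App-KI, against 0.002 in Trem2-KO and -0.001 in App-KI over all genes.

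**Figure D2:**
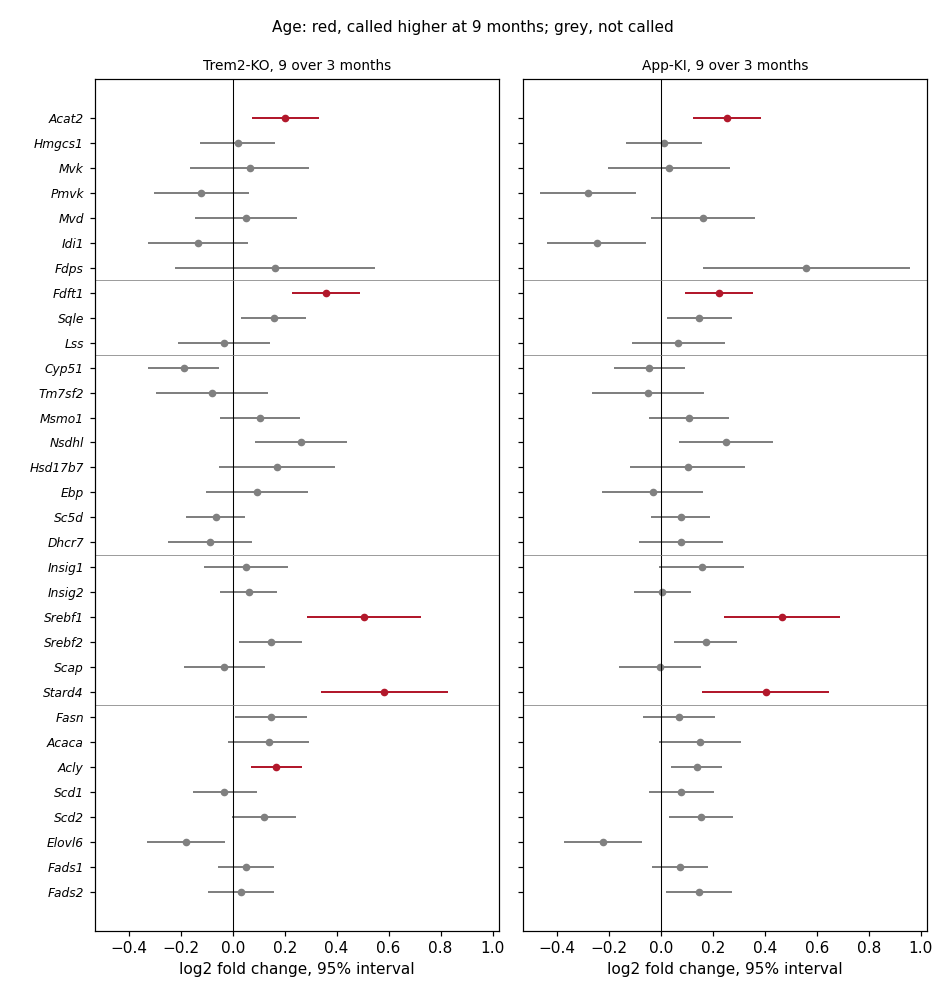
Log2 fold change of 9 over 3 months (point) with its 95% interval (line) for each of the 32 genes, in Trem2-KO on the left and App-KI on the right; red marks genes called higher. Srebf1 and Stard4 lie farthest to the right among the called genes in both panels, at 0.50 and 0.58 in Trem2-KO and 0.47 and 0.40 in App-KI.

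Srebf1 (ENSMUSG00000020538), which encodes SREBP1, had 71.7, 74.7 and 63.6 CPM at 9 months and 45.6, 56.4 and 45.7 CPM at 3 months in Trem2-KO. The App-KI libraries had 70.3, 60.8 and 53.0 CPM at 9 months and 43.8, 46.4 and 43.3 CPM at 3 months. In both genotypes every library at 9 months lay above every library at 3 months. Its log2 fold change was 0.50 ± 0.10 (SE) in Trem2-KO, with an adjusted p of 0.00664 in edgeR's quasi-likelihood test, and 0.47 ± 0.10 in App-KI, with an adjusted p of 0.0112. In App-KI its spread was widest at 9 months, and leaving out App-KI 3 months replicate 1 or 3, or App-KI 9 months replicate 1, ended that call, with log2 fold changes of 0.45, 0.44 and 0.35.

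Srebf2, which encodes the paralogous regulator of cholesterol synthesis, had 196, 216 and 227 CPM at 9 months and 180, 193 and 206 CPM at 3 months in Trem2-KO. In App-KI it had 220, 215 and 221 CPM at 9 months and 199, 196 and 189 CPM at 3 months. Its libraries overlapped between ages in Trem2-KO and did not in App-KI, and the log2 fold changes of 0.15 ± 0.06 in Trem2-KO and 0.17 ± 0.06 in App-KI did not pass edgeR's quasi-likelihood test within either genotype. Per kilobase Srebf2 stood at 29.7 CPM in Trem2-KO and 30.5 CPM in App-KI at 9 months, well above Srebf1 at 12.4 CPM in Trem2-KO and 10.9 CPM in App-KI.

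The escort Scap and the retention proteins Insig1 and Insig2 did not pass the test in either genotype. Their log2 fold changes with age were -0.03, 0.05 and 0.06 in Trem2-KO and -0.003, 0.16 and 0.005 in App-KI.

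Stard4 (ENSMUSG00000024378), a soluble protein that carries cholesterol between membranes, had 18.5, 16.7 and 19.2 CPM at 9 months and 13.3, 10.6 and 12.5 CPM at 3 months in Trem2-KO. In App-KI it had 18.8, 16.6 and 19.7 CPM at 9 months and 16.0, 12.6 and 13.0 CPM at 3 months. The ages did not overlap in either genotype, although App-KI 3 months replicate 1 came close to the lowest library at 9 months. The log2 fold change was 0.58 ± 0.12 in Trem2-KO (adjusted p = 0.00316, edgeR's quasi-likelihood test) and 0.40 ± 0.12 in App-KI (adjusted p = 0.0379). The call in App-KI ended without App-KI 3 months replicate 2 or 3, App-KI 9 months replicate 1 or 3, or Trem2-KO 3 months replicate 3, with log2 fold changes of 0.34 to 0.40.

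Fdft1 (ENSMUSG00000021273), squalene synthase and the first step committed to sterols, had 110.5, 118 and 129 CPM at 9 months and 92.6, 90.2 and 95.9 CPM at 3 months in Trem2-KO. Libraries of App-KI had 118, 108 and 119 CPM at 9 months and 103, 99.6 and 93.1 CPM at 3 months. No library at 3 months reached the level of any at 9 months of its genotype. The log2 fold change was 0.36 ± 0.06 in Trem2-KO (adjusted p = 0.000863, edgeR's quasi-likelihood test) and 0.22 ± 0.06 in App-KI (adjusted p = 0.0305). In App-KI the call ended without App-KI 3 months replicate 2 or 3 or App-KI 9 months replicate 1 or 3, with log2 fold changes of 0.18 to 0.23. Ctsb, the lysosomal protease gene whose exons overlap Fdft1, rose with age by 0.23 ± 0.05 in Trem2-KO and by 0.50 ± 0.05 in App-KI (edgeR's quasi-likelihood test, adjusted p = 0.00314 and 1.94e-07). Between genotypes at 9 months Ctsb fell by 0.26 in Trem2-KO against App-KI, while Fdft1 differed by 0.05 ± 0.06; how far Ctsb reads entered the Fdft1 counts was not tested.

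Acat2 (ENSMUSG00000023832), the cytosolic thiolase that joins acetyl-CoA units at the start of the mevalonate pathway, had 61.6, 65.8 and 70.5 CPM at 9 months and 55.7, 57.0 and 59.1 CPM at 3 months in Trem2-KO. App-KI libraries had 63.1, 59.8 and 63.2 CPM at 9 months and 51.2, 51.1 and 53.7 CPM at 3 months. The ages were separate in both genotypes. Its log2 fold change was 0.20 ± 0.06 in Trem2-KO (adjusted p = 0.0404, edgeR's quasi-likelihood test) and 0.25 ± 0.06 in App-KI (adjusted p = 0.0118). The call in App-KI ended without App-KI 3 months replicate 2 or App-KI 9 months replicate 1 or 3, with log2 fold changes of 0.23 to 0.24. In Trem2-KO it remained only without App-KI 3 months replicate 1 or 3 or Trem2-KO 9 months replicate 1; the other 9 fits gave 0.145 to 0.23, and a fit of the Trem2-KO libraries alone gave 0.195 with no call. Acat3, with which it shares sequence, stood at only 2.40 to 4.88 CPM and was not called in any comparison.

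Acly (ENSMUSG00000020917), ATP citrate lyase, had 215, 215 and 223 CPM at 9 months and 193, 193 and 195 CPM at 3 months in Trem2-KO. In App-KI it had 208, 208 and 225 CPM at 9 months and 193, 191 and 199 CPM at 3 months. The ages did not overlap in either genotype. The log2 fold change was 0.17 ± 0.05 in Trem2-KO (adjusted p = 0.0237, edgeR's quasi-likelihood test) and 0.14 ± 0.05 in App-KI (adjusted p = 0.0781). The call in Trem2-KO ended without Trem2-KO 3 months replicate 1, 2 or 3 or Trem2-KO 9 months replicate 2 or 3, with log2 fold changes of 0.14 to 0.18, and in a fit of the Trem2-KO libraries alone, at 0.16.

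**Figure D3:**
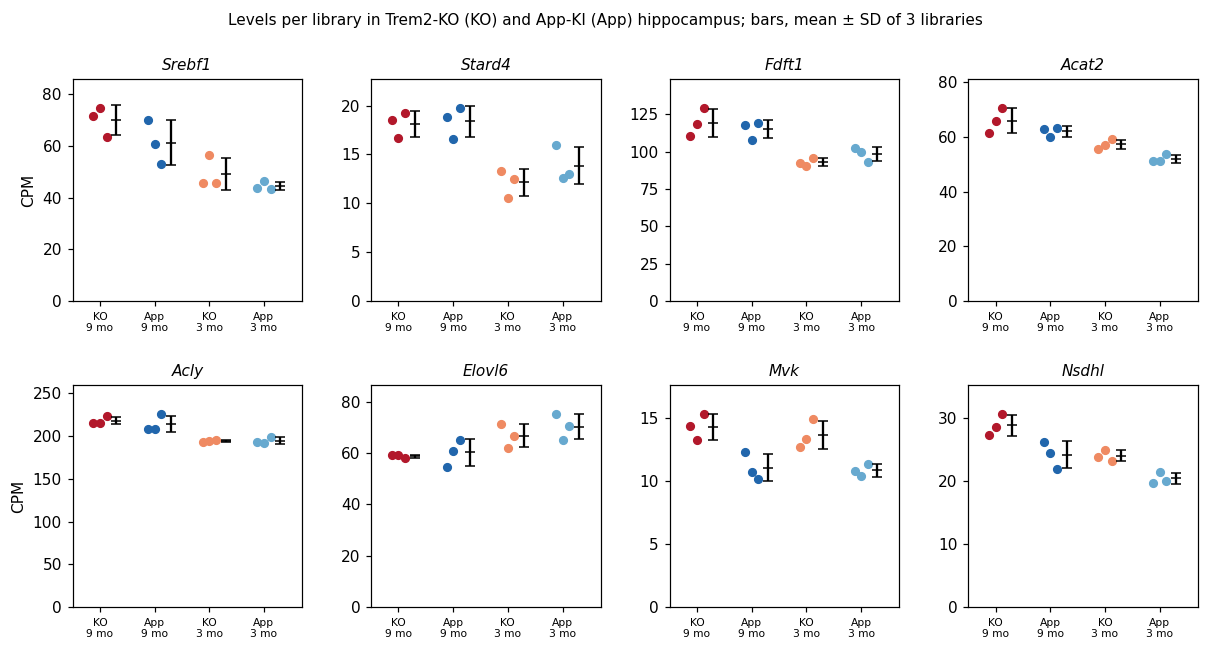
CPM in each library (points, 3 per group) with the mean and SD of each group (bars) for 8 of the genes; axes start at 0. Srebf1, Stard4, Fdft1, Acat2 and Acly lie higher at 9 months in both genotypes, Elovl6 lies lower at 9 months except for 1 App-KI library close to those at 3 months, and Mvk and Nsdhl lie higher in Trem2-KO than in App-KI at each age.

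How many genes passed within a genotype depended on single libraries. In Trem2-KO, Srebf1, Stard4 and Fdft1 were called in all 12 fits that each left out 1 library. Acly was called in 7 of those fits and Acat2 in 3. Only Srebf1, Stard4 and Fdft1 remained without Trem2-KO 3 months replicate 1, 2 or 3 or Trem2-KO 9 months replicate 2 or 3. In App-KI the count was 2 without App-KI 3 months replicate 2 (Srebf1 and Elovl6), 2 without App-KI 3 months replicate 3 (Acat2 and Idi1), 1 without App-KI 9 months replicate 1 (Pmvk), 2 without App-KI 9 months replicate 3 (Srebf1 and Elovl6) and 7 without Trem2-KO 9 months replicate 1.

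Averaging the age difference over both genotypes, a contrast added after the data had been seen, gave more precise values. In edgeR's quasi-likelihood test 9 of the 32 genes rose with age and 3 fell, while 9.26% of all genes tested were called higher and 7.7% lower. DESeq2 called the same 12 genes, against 3175 of the 18694 genes to which it gave an adjusted p. The genes that rose were the 5 named above and Nsdhl, Srebf2, Sqle and Scd2, and those that fell were Elovl6, Pmvk and Idi1. The median log2 fold change of the 32 genes was 0.096, against 0.002 over all genes.

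By role, the squalene steps had 2 of 3 genes higher, the regulators and carriers 3 of 6 higher, fatty acid synthesis 2 of 8 higher and 1 lower, and the steps after lanosterol 1 of 8 higher. The mevalonate and isoprenoid steps were mixed, with 1 of 7 higher and 2 lower. Srebf1 rose by 0.49 ± 0.07, Stard4 by 0.49 ± 0.08, Fdft1 by 0.29 ± 0.04 and Acat2 by 0.23 ± 0.04 on the log2 scale. Acly rose by 0.15 ± 0.03 and Srebf2 by 0.16 ± 0.04.

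Sqle, squalene epoxidase, had 110, 116 and 117 CPM at 9 months and 106, 99.1 and 102 CPM at 3 months in Trem2-KO, and 111, 103 and 119 CPM at 9 months and 105, 100.5 and 95.7 CPM at 3 months in App-KI. The ages overlapped in App-KI, and the averaged log2 fold change was 0.15 ± 0.04 (adjusted p = 0.0129, edgeR's quasi-likelihood test). Without App-KI 9 months replicate 3 it was 0.12 and not called. Scd2 had 1430, 1538 and 1445 CPM at 9 months and 1378, 1327 and 1354 CPM at 3 months in Trem2-KO, and 1542, 1584 and 1592 CPM at 9 months and 1561, 1371 and 1306 CPM at 3 months in App-KI. App-KI 3 months replicate 1 lay inside the range at 9 months, and the averaged change of 0.14 ± 0.04 (adjusted p = 0.0219) was called in 5 of the 12 fits without 1 library. The call ended without App-KI 3 months replicate 2 or 3, App-KI 9 months replicate 2 or 3, Trem2-KO 3 months replicate 2 or 3, or Trem2-KO 9 months replicate 2, with log2 fold changes of 0.11 to 0.14.

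Nsdhl, a dehydrogenase that takes part in removing methyl groups from the sterol ring, rose by 0.26 ± 0.06 with age in the averaged contrast (adjusted p = 0.00471, edgeR's quasi-likelihood test). Within a genotype its log2 fold change was 0.26 ± 0.08 in Trem2-KO and 0.25 ± 0.09 in App-KI, and neither passed the test. The other 7 genes after lanosterol did not pass the averaged test. Among them Cyp51, lanosterol demethylase, had a log2 fold change of -0.19 ± 0.06 in Trem2-KO and -0.05 ± 0.06 in App-KI.

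Elovl6, the elongase that extends palmitate, had 59.2, 59.1 and 58.2 CPM at 9 months and 71.2, 62.2 and 66.7 CPM at 3 months in Trem2-KO. The App-KI values were 54.7, 60.9 and 65.1 CPM at 9 months and 75.1, 65.2 and 70.5 CPM at 3 months. The ages did not overlap within either genotype, though the highest App-KI library at 9 months almost reached the lowest at 3 months. Elovl6 fell by 0.20 ± 0.05 on the log2 scale in the averaged contrast (adjusted p = 0.00702, edgeR's quasi-likelihood test), and was called in all 12 fits without 1 library.

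Pmvk, phosphomevalonate kinase, had 26.0, 21.4 and 24.1 CPM at 9 months and 27.1, 25.1 and 25.7 CPM at 3 months in Trem2-KO, and 24.2, 20.8 and 21.5 CPM at 9 months and 27.4, 26.7 and 26.6 CPM at 3 months in App-KI. It fell by 0.20 ± 0.06 in the averaged contrast (adjusted p = 0.0264, edgeR's quasi-likelihood test), but not without App-KI 9 months replicate 2 or 3, Trem2-KO 3 months replicate 1 or Trem2-KO 9 months replicate 2, where the log2 fold change was -0.17 to -0.20. Idi1, the isomerase of isopentenyl diphosphate, had 24.5, 27.4 and 28.4 CPM at 9 months and 30.6, 27.7 and 29.7 CPM at 3 months in Trem2-KO, and 28.8, 27.8 and 30.4 CPM at 9 months and 39.0, 34.1 and 30.0 CPM at 3 months in App-KI. Its ages overlapped in both genotypes, and the averaged fall of 0.19 ± 0.06 (adjusted p = 0.0439) was called in only 4 of the 12 fits without 1 library. The smallest fall, 0.14, came without App-KI 3 months replicate 1; the call also ended without App-KI 3 months replicate 2, App-KI 9 months replicate 1 or 2, Trem2-KO 3 months replicate 1 or 3, or Trem2-KO 9 months replicate 1 or 2.

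The 19 genes called in no comparison had averaged age differences between -0.12 (Cyp51) and 0.36 (Fdps) on the log2 scale. Hmgcs1 stood at 347 ± 19.1 CPM at 9 months and 343 ± 17.5 CPM at 3 months in Trem2-KO (SD, n = 3 each), and at 337 ± 16.8 CPM at 9 months and 335 ± 36.0 CPM at 3 months in App-KI. Its ages overlapped in both genotypes. Fasn, fatty acid synthase, stood at 217 ± 15.1 CPM at 9 months and 196 ± 15.6 CPM at 3 months in Trem2-KO, and at 211 ± 8.47 CPM at 9 months and 202 ± 13.9 CPM at 3 months in App-KI. Its log2 fold changes of 0.15 ± 0.07 in Trem2-KO and 0.07 ± 0.07 in App-KI did not pass the test.

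Fdps had the widest intervals of the set. It stood at 4.32, 3.59 and 3.71 CPM at 9 months and 3.15, 3.60 and 3.61 CPM at 3 months in Trem2-KO, and at 4.01, 3.32 and 4.59 CPM at 9 months and 2.24, 3.25 and 2.63 CPM at 3 months in App-KI. Its log2 fold change was 0.16 ± 0.18 in Trem2-KO (adjusted p = 0.66, edgeR's quasi-likelihood test) and 0.56 ± 0.19 in App-KI (adjusted p = 0.0874). For the others, Mvd (diphosphomevalonate decarboxylase), Lss, Msmo1 (sterol methyl oxidase), Acaca, Scd1, Fads1 and Fads2, the averaged log2 fold changes were 0.11, 0.02, 0.11, 0.14, 0.02, 0.06 and 0.09. Tm7sf2, Hsd17b7, Ebp and Dhcr7, all of which act after lanosterol, were likewise not called.

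**Figure D4:**
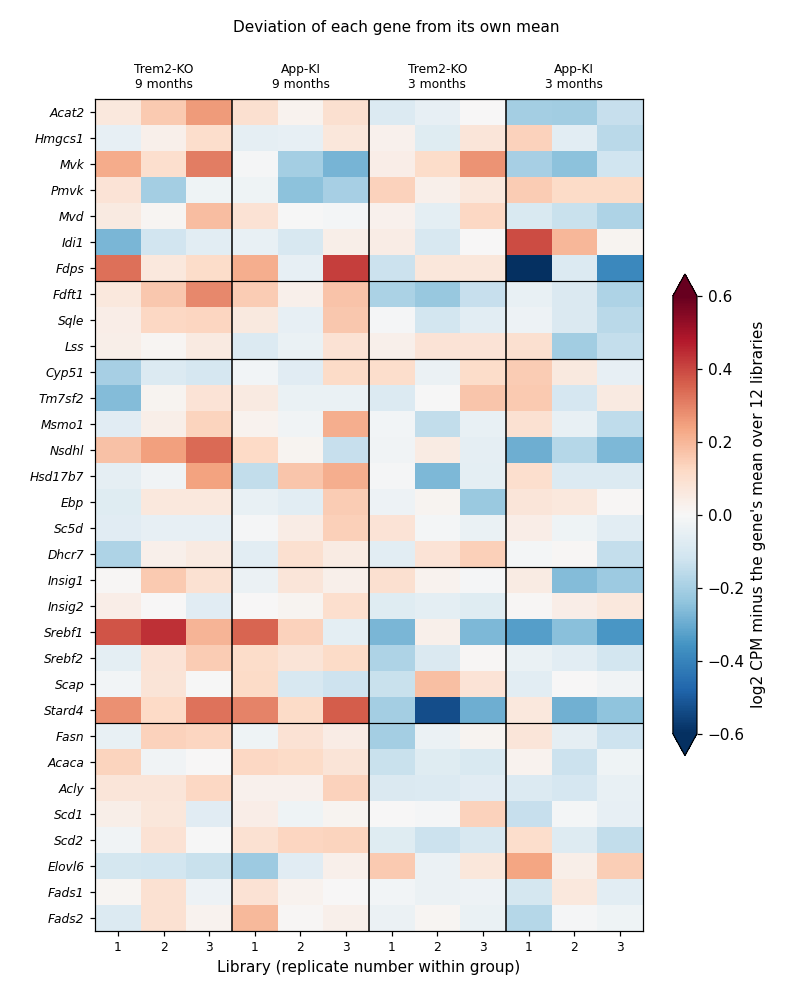
Deviation of log2 CPM from the gene's mean over the 12 libraries (colour; red above, blue below, capped at 0.6) for the 32 genes (rows, by role) in each library (columns, by group). Srebf1 and Stard4 are mostly red at 9 months and blue at 3 months, Mvk and Nsdhl differ between genotypes, and most other rows are pale.

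Markers of glia, vessels and neurons moved with age in the same libraries. The 10 microglial markers had a mean log2 CPM of 6.12 to 6.15 at 9 months and 5.34 to 5.42 at 3 months in Trem2-KO, and of 6.899 to 6.998 at 9 months and 5.46 to 5.52 at 3 months in App-KI. By edgeR's quasi-likelihood test 9 of the 10 rose with age in Trem2-KO and 10 of 10 in App-KI. None of the 10 was at 0 in any library. The 8 astrocyte markers had a mean log2 CPM of 8.32 to 8.46 at 9 months and 8.18 to 8.23 at 3 months in Trem2-KO, and of 8.41 to 8.50 at 9 months and 8.24 to 8.30 at 3 months in App-KI. Of these, 4 of 8 rose in Trem2-KO and 2 of 8 in App-KI.

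The 10 markers of myelinating oligodendrocytes had a mean log2 CPM of 7.57 to 7.93 at 9 months and 8.05 to 8.16 at 3 months in Trem2-KO, and of 7.71 to 7.85 at 9 months and 7.77 to 8.32 at 3 months in App-KI. In Trem2-KO 3 of 10 fell (Mog, Cldn11 and Opalin) and in App-KI 1 of 10 (Opalin). The 6 fibroblast markers had a mean log2 CPM of 4.28 to 4.64 at 9 months in Trem2-KO, above the 3.27 to 3.91 of the other 3 groups, and 3 of 6 rose with age in Trem2-KO and none in App-KI. The 5 endothelial markers had a mean log2 CPM of 5.48 to 5.54 at 9 months and 5.13 to 5.29 at 3 months in Trem2-KO, and of 5.29 to 5.48 at 9 months and 5.27 to 5.46 at 3 months in App-KI. Of these Flt1 and Pecam1 rose in Trem2-KO and none in App-KI. The 6 hippocampal subfield markers had a mean log2 CPM of 7.21 to 7.31 at 9 months and 7.36 to 7.41 at 3 months in Trem2-KO, and of 7.18 to 7.32 at 9 months and 7.24 to 7.41 at 3 months in App-KI. In Trem2-KO 3 of 6 fell (Wfs1, Fibcd1 and Neurod6) and in App-KI 2 of 6 (Wfs1 and Neurod6). Of 6 general neuronal markers 1, Rbfox3, fell in Trem2-KO and none in App-KI. Of 5 markers of oligodendrocyte precursors, Pdgfra rose in both genotypes and Gpr17 fell in Trem2-KO. The part of astrocytes and of vessel, fibroblast, precursor and neuronal cells in the age differences of the 32 genes was not tested. In bulk tissue, a change in the number of cells of a type and a change in RNA per cell cannot be told apart.

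With the oligodendrocyte score as a covariate, Srebf1, Stard4 and Fdft1 remained called in Trem2-KO (log2 fold change 0.55, 0.67 and 0.36) and Srebf1 and Stard4 in App-KI (0.50 and 0.47). Acat2 was then not called in Trem2-KO (0.14) or App-KI (0.21), nor was Acly in Trem2-KO (0.14) or Fdft1 in App-KI (0.22). In the averaged contrast 6 genes were called with this covariate, all higher: Srebf1, Stard4, Fdft1, Sqle, Scd2 and Insig1. Of this score's variance, 50.5% lay between the 4 groups. Over all genes, the covariate widened the median SE of the age comparison from 0.123 to 0.155 for Trem2-KO mice. For App-KI mice that SE became 0.141, from 0.123, and in the averaged contrast 0.12, from 0.087. The log2 fold change of Fdft1 in App-KI was 0.22 with and without the covariate. How far the lost calls reflect wider SEs was not tested. The microglial score could not serve in the same way, since 99.8% of its variance lay between the 4 groups, so its part in the age differences cannot be told apart from age and genotype.

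Between genotypes no gene of the set passed the test at either age. At 9 months none of the 32 genes was called in Trem2-KO against App-KI, while 2.08% of all genes were called. At an unadjusted p under 0.05, 4 genes passed where 13.6% of all genes did, and DESeq2 called 0 of the 32 and 3.27% of all genes. At 3 months none was called in edgeR's test, against 0.59% of all genes, 5 genes had an unadjusted p under 0.05, against 11.2% of all genes, and DESeq2 called 0, against 1.67% of all genes. The median log2 fold change of the 32 genes was -0.006 at 9 months and 0.005 at 3 months, against 0.007 at 9 months and 0.003 at 3 months over all genes.

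The intervals limit how large a difference could have gone undetected. At 9 months the 95% interval of the log2 fold change lay within ±0.5 for 31 of the 32 genes, and at 3 months for 30. The exceptions were Mvk at 9 months, and Mvk and Fdps at 3 months. The microglial markers in the same libraries at 9 months had a median log2 fold change of -0.85, and 10 of 10 fell in Trem2-KO. Of the 5 markers of oligodendrocyte precursors, 3 also fell in Trem2-KO at 9 months, as did 1 of 8 astrocyte markers and 1 of 6 hippocampal subfield markers. The 6 fibroblast markers had a median log2 fold change of 1.08 at 9 months, with 0 called by edgeR and 4 by DESeq2. The part of these cells in the genotype differences of single genes was not tested.

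**Figure D5:**
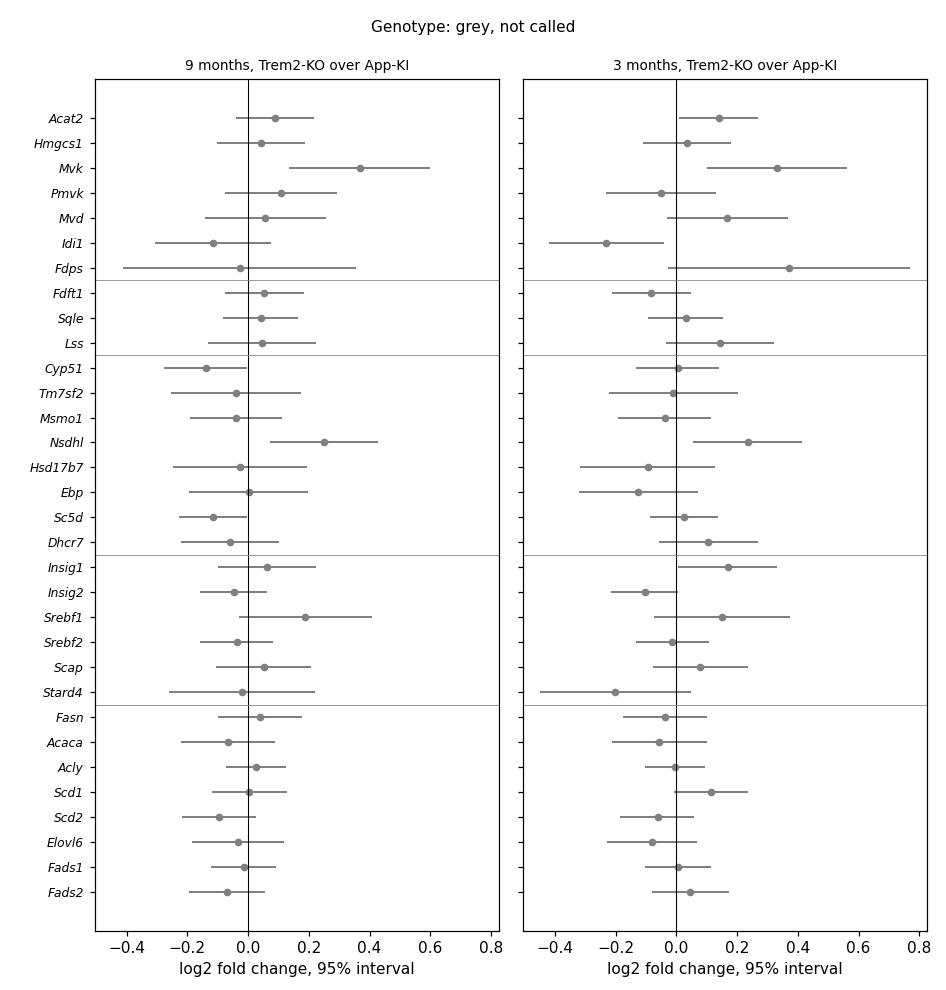
Log2 fold change of Trem2-KO over App-KI (point) with its 95% interval (line) for each of the 32 genes, at 9 months on the left and 3 months on the right; grey marks genes not called. Mvk, at 0.37 and 0.33, and Nsdhl, at 0.25 and 0.23, lie to the right of 0 in both panels, and most other genes lie around 0.

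The smallest unadjusted p at both ages belonged to Mvk and Nsdhl. Mvk (ENSMUSG00000041939), mevalonate kinase, had 14.4, 13.2 and 15.3 CPM in Trem2-KO and 12.3, 10.7 and 10.2 CPM in App-KI at 9 months. At 3 months it had 12.7, 13.3 and 14.9 CPM in Trem2-KO and 10.8, 10.4 and 11.4 CPM in App-KI. The genotypes did not overlap at either age, but the share of all genes separated in this way was not counted. The log2 fold change was 0.37 ± 0.11 at 9 months (adjusted p = 0.0964, edgeR's quasi-likelihood test) and 0.33 ± 0.11 at 3 months (adjusted p = 0.205).

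Nsdhl (ENSMUSG00000031349) had 27.3, 28.7 and 30.7 CPM in Trem2-KO and 26.3, 24.5 and 22.0 CPM in App-KI at 9 months. At 3 months it had 23.8, 25.0 and 23.3 CPM in Trem2-KO and 19.8, 21.5 and 20.1 CPM in App-KI. Trem2-KO lay above App-KI in every library at each age. The log2 fold change was 0.25 ± 0.08 at 9 months (adjusted p = 0.151, edgeR's quasi-likelihood test) and 0.23 ± 0.08 at 3 months (adjusted p = 0.263).

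Averaged over both ages, a contrast also added after the data had been seen, Mvk and Nsdhl were higher in Trem2-KO. The log2 fold change was 0.35 ± 0.08 for Mvk (adjusted p = 0.0118, edgeR's quasi-likelihood test) and 0.24 ± 0.06 for Nsdhl (adjusted p = 0.0235). They were the 2 of 32 genes called higher, with none lower, where 1.6% of all genes were called higher and 2.54% lower. DESeq2 called 2 of the 32 as well, against 983 of the 15093 genes to which it gave an adjusted p. Mvk was called in all 12 fits without 1 library. Nsdhl was not called without App-KI 3 months replicate 1 or 3, App-KI 9 months replicate 3 or Trem2-KO 3 months replicate 2, where the log2 fold change was 0.21 to 0.23. With the oligodendrocyte score as a covariate both remained called, at 0.36 and 0.25.

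The neighbouring enzymes did not pass the test. Pmvk, which acts after Mvk, had a log2 fold change of 0.11 at 9 months and -0.05 at 3 months, and Mvd, the next enzyme, 0.06 at 9 months and 0.17 at 3 months. Idi1 had a log2 fold change of -0.12 ± 0.09 at 9 months and -0.23 ± 0.09 at 3 months, and its genotypes overlapped at both ages. Sc5d, which adds a double bond to the sterol ring, had 114, 115 and 115 CPM in Trem2-KO and 118, 123 and 131 CPM in App-KI at 9 months. Its groups did not overlap there, but its log2 fold change of -0.12 ± 0.05 did not pass (adjusted p = 0.329, edgeR's quasi-likelihood test).

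No gene of the set passed the test for a difference between genotypes in its change with age. In the interaction of age and genotype 0 of 32 were called, 0 had an unadjusted p under 0.05 and DESeq2 called 0, against 0.266%, 6.04% and 0.591% of all genes. The 3 smallest p-values belonged to Sc5d at -0.14 ± 0.07, Fdft1 at 0.14 ± 0.09 and Cyp51 at -0.14 ± 0.09 on the log2 scale. For Stard4 the difference in age change was 0.18, with a 95% interval of -0.16 to 0.52. For Srebf1 it was 0.04, with an interval of -0.27 to 0.35. Both intervals include moderate differences between the genotypes, which this test would not have called.

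Other genes of lipid metabolism, counted as a list of 60 that feed, branch from or drain the pathway, were tested in the same fit. Between genotypes, 0 of 60 were called at 9 months, against 2.08% of all genes. At an unadjusted p under 0.05 there were 8 of 60, against 13.6% of all genes, and DESeq2 called 1 of 60, against 3.27%. At 3 months 1 of 60 was called, and it was lower in Trem2-KO, against 0.59% of all genes called in either direction. That gene was Lpin2, a phosphatidate phosphatase, at -0.24 ± 0.05 (adjusted p = 0.0439, edgeR's quasi-likelihood test). With age, 7 of 60 rose and 3 fell in Trem2-KO, where 5.68% of all genes were called higher and 3.02% lower. In App-KI 6 of 60 rose and 1 fell, where 3.95% of all genes were called higher and 2.71% lower.

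Several of the genes that rose with age act in the export, esterification and lysosomal release of cholesterol. Abca1, the transporter that loads cholesterol onto apolipoproteins, rose by 0.61 ± 0.11 in Trem2-KO and by 0.41 ± 0.11 in App-KI. Soat1, which esterifies cholesterol, rose by 0.37 ± 0.07 in Trem2-KO and by 0.25 ± 0.07 in App-KI. Npc2, which hands cholesterol out of the lysosome, rose by 0.35 ± 0.08 in Trem2-KO and by 0.51 ± 0.08 in App-KI. Lpin1, a paralogue of Lpin2, rose by 0.45 ± 0.07 in Trem2-KO and by 0.23 ± 0.07 in App-KI.

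In Trem2-KO the lysosomal lipase Lipa rose by 0.39 ± 0.09, the acyltransferase Gpam by 0.32 ± 0.07 and the NADPH source G6pdx by 0.29 ± 0.08. In App-KI, Mylip, which marks lipoprotein receptors for degradation, rose by 0.41 ± 0.09 and malic enzyme Me1 by 0.23 ± 0.06. The genes that fell were Acss2, an acetyl-CoA synthetase, Elovl4, an elongase of very long chains, and Osbpl1a in Trem2-KO, by 0.24, 0.28 and 0.17, and Tecr, which completes each round of chain elongation, in App-KI, by 0.21. All passed edgeR's quasi-likelihood test at an adjusted p under 0.05. Within a genotype, none of the 7 genes of isoprenoid branches and none of the 7 of SREBP processing was called with age by edgeR or DESeq2. DESeq2 called 1877 of 16533 genes in Trem2-KO and 1352 in App-KI. At an unadjusted p under 0.05 in edgeR there was 1, in SREBP processing in Trem2-KO. Over all 19152 genes tested, 4339 in Trem2-KO and 3271 in App-KI had such a p.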

How the data were processed

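Bulk RNA-seq was made from the hippocampus of 12 mice. RNA came from a column kit and libraries from the SMART-Seq mRNA LP kit, per the labels' protocols. The authors deposited raw integer counts per gene; the build GRCm39 and the tools featureCounts 2.0.3, STAR 2.7.10a, DESeq2 1.36.0 and R 4.2.0 appear in the submitters' processing notes without role or settings. No source used here gives the strand setting.

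Symbols, exon lengths and shared sequence came from GENCODE M21 on GRCm38, which matched 52073 identifiers, and start regions from RefSeq on GRCm38.p6. The 32 genes, the other gene lists and the tests were chosen with earlier results of these data known. Genes were kept by filterByExpr (minimum count 10, minimum total 15) and scaled by TMM, and CPM values use the scaled library sizes. In R 4.3.3, edgeR 4.0.16 fitted 1 term per group over the 12 libraries (8 residual degrees of freedom) and its robust quasi-likelihood test gave p-values. These were adjusted by Benjamini-Hochberg over 19152 genes, and a gene was called under 0.05. SEs and 95% intervals come from the same fit, with t limits on edgeR's total degrees of freedom. Comparisons were genotype at each age, age in each genotype and their interaction; 2 averaged contrasts were added after the data had been seen. DESeq2 1.42.0, other scaling, filters, subsets and marker scores as covariates were alternatives, and the test was tested on simulated data. Values in every library are given for genes called in any comparison and the 3 smallest p of each, others by range. Whether the libraries of 2 groups overlap is description only, because the share of all genes without overlap was not counted. Limits from counts cover counting error only, and the reads carry no molecular identifiers. The p-values set differences between groups against the spread between mice within groups. That spread was estimated over the 4 groups together and moderated across genes.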

Additional observations from a re-analysis of the deposited data

How the results depend on the processing

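With 3 mice a group, the median SE of the 32 genes was 0.072 on the log2 scale within an age or genotype, which limits how small a change could be called. Every alternative left the count of the 32 genes called between genotypes at 0 at 9 and at 3 months, and in the interaction. Genes called over the whole table for genotype at 3 months numbered 113 and moved to 264 with DESeq2, 347 without a filter, 218 with 2 groups only, 176 with the choroid plexus score and 3 with the microglial score as covariate (26 to 154 without 1 library). For genotype at 9 months 398 became 831 without a filter and 0 with the microglial score (175 to 556). For the interaction 51 became 102 with DESeq2, 187 without a filter, 82 with the choroid plexus score and 0 with the microglial score (29 to 76). For age, 1667 in Trem2-KO (769 to 1920), 1276 in App-KI (788 to 1523) and 3249 averaged, and for genotype averaged 793 (458 to 930), became 0 with the microglial score. Of the 32 genes, 5 were called with age in Trem2-KO, 3 with 2 groups only and 3 to 7 without 1 library; in App-KI 4, and 1 to 7 without 1 library; averaged 12, and 6 with the oligodendrocyte score; for genotype averaged 2, and 1 to 2 without 1 library. All these counts were 0 with the microglial score, which raised the median SE over all genes to between 0.213 and 2.08, from 0.087 to 0.174. Only that covariate reversed directions: Nsdhl between genotypes, -0.43 at 9 months and -0.15 averaged; Acat2 with age, -0.061 in Trem2-KO, -0.26 in App-KI and -0.16 averaged; Acly, -0.14 in Trem2-KO and -0.29 averaged; and Srebf2 -0.26, Pmvk 0.95 and Idi1 0.42 averaged. No paired analysis was possible because the labels give mouse identifiers and no replicate numbers shared between groups.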

Other observations

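In the averaged age contrast, 13 of the 60 neighbouring genes rose with age and 6 fell in edgeR's quasi-likelihood test, where 9.26% of all genes were called higher and 7.7% lower. Beside those already named, Agpat2, an acyltransferase of phosphatidic acid synthesis, rose by 0.78 ± 0.21 on the log2 scale (adjusted p = 0.0138). Npc1, the lysosomal partner of Npc2, rose by 0.20 ± 0.06, the elongase Elovl5 by 0.16 ± 0.04 and the NADPH-forming dehydrogenase Pgd by 0.14 ± 0.05. Hacd1, a dehydratase of chain elongation, fell by 0.37 ± 0.11, and Cyp46a1, the neuronal hydroxylase through which the brain disposes of cholesterol, fell by 0.13 ± 0.04.

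Averaged over both ages, Lipa fell by 0.26 ± 0.06 and Lpin2 by 0.22 ± 0.04 in Trem2-KO against App-KI (adjusted p = 0.0275 and 0.00138, edgeR's quasi-likelihood test). They were the 2 of 60 genes called lower, and none was called higher, where 2.54% of all genes were called lower and 1.6% higher.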
